A study of Mus musculus with 12 samples.

Results

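Pax2, Lrtm1 and Dct are 3 mouse genes whose signals were well above background in every liver sample outside tumours and far lower in the liver tumours. On the probe used for each gene, Pax2 and Lrtm1 were well above background in 1 of 3 tumours and Dct in 2 of 3. They were chosen by that fall, the log2 difference between tumours and the other groups on these same 12 arrays, so their tumour differences are given as a description with no test. They were found by gene name among the non-control probes of the arrays, which gave 6 probes for 3 genes out of 55681 probes and 34741 genes or unnamed transcripts in all. Liver RNA of C3H/HeN F2 males at around 74 weeks of age had been hybridised to 12 Agilent 1-colour arrays, which read the brightness of a Cy3-labelled RNA copy on 60-base probes. F0 dams of the arsenite line drank tap water with 85 ppm sodium arsenite from day 8 to day 18 of gestation, and dams of the control line drank tap water. No F1 or F2 mouse received arsenite, and F1 mice were mated at 10 weeks. There are 4 groups of 3 samples: control-line liver labelled non-tumour, and arsenite-line liver labelled normal, non-tumour or tumour. All mice share the strain, sex and age, and tumours of the control line were not analysed here, so every tumour value below is of arsenite-line mice. Samples carry the numbers 1 to 3 in the labels, without a statement on whether they come from separate mice, and p-values measure the spread between these samples.

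Each value is a log2 processed signal less the 75th percentile of its array, so 0 is the 75th percentile of that array's spots and a step of 1 is a doubling. The share of probes well above background ranged from 39.2% to 45.6% over the 12 arrays, and the dimmest signal still well above background lay between -3.47 and -2.60. The 3 tumour arrays were on a slide of their own and the 3 normal arrays on another, while both non-tumour groups shared a slide. For every tumour difference, slide and tissue therefore cannot be told apart. Hepatocyte markers were bright on all arrays: 10 of 10 were tested, and their summed linear level, in multiples of the 75th percentile, was 8350 to 9190 in arsenite-line non-tumour liver and 7464 to 8949 in tumours.

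Pax2 encodes a paired-box transcription factor that directs the growth of the kidney, the urogenital tract and parts of the eye and brain in the embryo. Dct encodes dopachrome tautomerase, an enzyme of the melanosome that acts after tyrosinase in the making of eumelanin, the dark pigment, and is used as a marker of melanocytes. Lrtm1 encodes a membrane protein with leucine-rich repeats outside the cell, a type of domain found in many proteins that bind other proteins. None of these genes is a classical marker of hepatocytes, the main cell of the liver.

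Pax2 had 3 probes, and only the last of them along the gene gave a signal. They are shown because the whole Pax2 result rests on the last one. Per the array annotation they lie on chromosome 19 of mm9, at chr19:44835420-44835479 for A_55_P2148518, chr19:44871124-44871183 for A_55_P2075125 and chr19:44909895-44909954 for A_55_P2075127. The first and the last are annotated to the same RefSeq transcript of Pax2, and the middle one to an Ensembl transcript. The sequences are in lower case throughout, as no part of them is marked.
A_55_P2148518: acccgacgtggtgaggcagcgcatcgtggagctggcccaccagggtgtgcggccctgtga
A_55_P2075125: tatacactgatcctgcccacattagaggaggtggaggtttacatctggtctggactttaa
A_55_P2075127: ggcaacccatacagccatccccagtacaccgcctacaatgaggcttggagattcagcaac
The starts of the first and the last probe are 74475 bases apart, and the middle one starts 38771 bases before the last. GC content was 70%, 45% and 55%. Lrtm1 had 1 probe, A_51_P326685 at chr14:29840895-29840954. Dct had 2 probes, A_55_P1961466 at chr14:118412029-118412088 and A_55_P2003053 at chr14:118412013-118412072, which share 44 bases and so do not count as separate measurements of the gene. For each gene the brighter probe over the 12 arrays was used, and the longest run that it shared with a probe of another gene, on either strand, was 13 to 14 bases.

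Pax2 was bright in all 9 arrays outside tumours. Its log2 signal was 5.46, 6.13 and 6.42 in control-line non-tumour liver, 6.81, 6.40 and 6.68 in arsenite-line normal liver, and 6.45, 6.31 and 5.80 in arsenite-line non-tumour liver. In the 3 tumours it was -3.80, -3.80 and -1.02, of which only the value of tumour 3 was well above background. The tumours lay far below the other groups, with no overlap, and tumour 3 stood above the other two. Against the mean of arsenite-line non-tumour liver, 6.19 ± 0.34 (SD, n = 3), the signal was at least 789.9-fold lower in tumour 1, at least 764-fold lower in tumour 2 and 147-fold lower in tumour 3. Where a tumour's signal was not well above background, the fold was taken against the dimmest signal of that array still well above background, and "at least" marks it as a lower bound.

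Lrtm1 was likewise well above background on all 9 arrays outside tumours. Its log2 signal was 3.83, 4.24 and 4.48 in control-line non-tumour liver, 4.83, 4.51 and 4.40 in arsenite-line normal liver, and 4.03, 4.37 and 4.10 in arsenite-line non-tumour liver. In the tumours it was -4.43, -3.76 and -1.62, and again only tumour 3 was well above background. No tumour came near the lowest array outside tumours. Against the arsenite-line non-tumour mean of 4.16 ± 0.18 (SD, n = 3), Lrtm1 was at least 194-fold lower in tumour 1, at least 188-fold lower in tumour 2 and 55.0-fold lower in tumour 3.

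Dct was also read on all 9 arrays outside tumours. The log2 signal was 4.70, 3.67 and 3.55 in control-line non-tumour liver, 4.16, 4.48 and 3.74 in arsenite-line normal liver, and 4.26, 4.64 and 4.76 in arsenite-line non-tumour liver. In the tumours it was -5.48, -1.58 and -0.59. On this probe tumours 2 and 3 kept a Dct signal well above background, and tumour 1 did not. On the other Dct probe tumour 2, at -4.05, was not well above background either. Against the arsenite-line non-tumour mean of 4.55 ± 0.26 (SD, n = 3), Dct was at least 255-fold lower in tumour 1, 70.0-fold lower in tumour 2 and 35.2-fold lower in tumour 3.

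**Figure D1:**
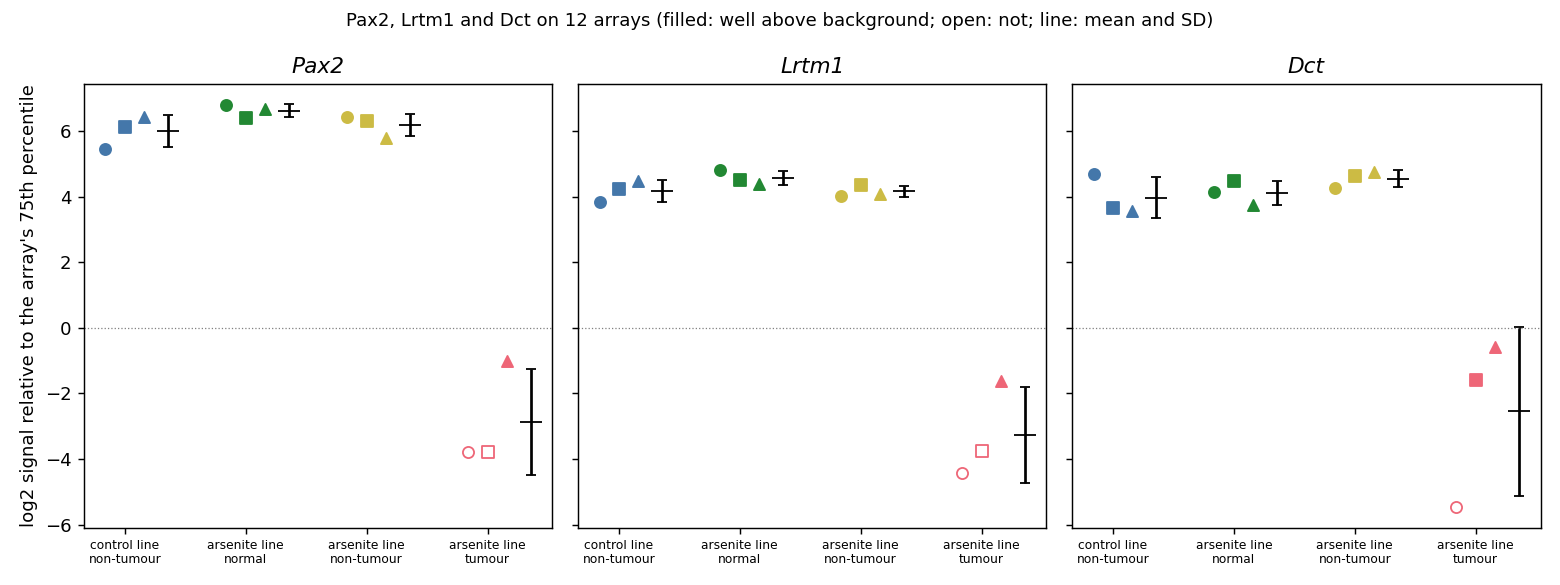
Log2 signal relative to the array's 75th percentile for the probe used of Pax2, Lrtm1 and Dct, by group; circles, squares and triangles are samples 1, 2 and 3, filled where the spot was well above background, and the line with bars is the group mean ± SD. The 9 arrays outside tumours sit at 5.46 or more for Pax2, 3.83 or more for Lrtm1 and 3.55 or more for Dct, and the tumours at -0.59 or less.

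As means of log2 values, the differences of the 3 genes were as follows, with 18101 genes in the fit. In tumours minus arsenite-line non-tumour liver, Pax2 was -9.06 ± 0.63 (SE of the fit), Lrtm1 -7.43 ± 0.56 and Dct -7.10 ± 0.98. Against arsenite-line normal liver the differences were -9.50, -7.85 and -6.67, and against control-line non-tumour liver -8.87, -7.45 and -6.52. These differences hold tumour signals below background, so neither their sizes nor the spread between tumours are exact. Without tumour 3, the difference from arsenite-line non-tumour liver was -9.98 for Pax2 and -8.26 for Lrtm1, and without tumour 1 it was -5.63 for Dct. Over the 9 arrays outside tumours, all well above background, the SD of the log2 values was 0.42 for Pax2, 0.30 for Lrtm1 and 0.47 for Dct. In that comparison 47% of all genes tested passed the threshold, 17.1% higher and 29.9% lower in tumours, and 35.9% had all tumours below all arsenite-line non-tumour arrays, as the 3 genes do by the way they were chosen. Against arsenite-line normal liver 30.9% were called lower in tumours and 37.7% had all tumours below, and against control-line non-tumour liver 32.2% and 37%. The comparisons of tumours with each of the other groups share the tumour arrays, so they are not independent of each other.

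The second Dct probe was also lowest in tumours, while the other Pax2 probes gave no second reading of that gene. The second Dct probe read 3.63, 2.55 and 2.39 in control-line non-tumour liver, 3.09, 3.33 and 2.57 in arsenite-line normal liver, and 3.19, 3.52 and 3.58 in arsenite-line non-tumour liver. It read -5.51, -4.05 and -1.76 in the tumours, where only tumour 3 was well above background. Tumour 3 was thus the brightest tumour on every probe that followed the fall. The middle Pax2 probe was not well above background on any of the 12 arrays. The first Pax2 probe was above it on 1 array, sample 1 of arsenite-line non-tumour liver, at -0.09, with a processed signal of 178 against 4.79 to 6.76 on the other 11 arrays. That spot carried no outlier mark, and its pixels had a mean of 209.6 with an SD of 104.8. The Pax2 signal outside tumours therefore stands for the sequence of the last probe alone. Outside tumours the last probe had a processed signal of 8171 to 20853. The first probe, annotated to the same RefSeq transcript, read 5.26 to 6.76 there on all but that 1 array. A bright signal was thus not seen along the whole transcript, and whether it stands for an intact Pax2 transcript was not tested. The files hold no measure of the strand or exon that was read, and no sequence reads were used here.

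Among the groups outside tumours, the mean signal was highest in arsenite-line normal liver for Pax2 (6.63 ± 0.21, SD, n = 3) and Lrtm1 (4.58 ± 0.22) and in arsenite-line non-tumour liver for Dct (4.55 ± 0.26). It was lowest in control-line non-tumour liver for Pax2 (SD 0.49) and Dct (3.97 ± 0.63) and in arsenite-line non-tumour liver for Lrtm1 (4.16 ± 0.18). No adjacent groups in these orders differed past the threshold. None of the 3 genes passed the threshold in any of the 3 comparisons without tumours, contrasts that the choice of the genes did not use. Non-tumour liver of the arsenite line minus its normal liver gave -0.44 ± 0.63 (SE) for Pax2, with a 95% confidence interval of -1.83 to 0.95 and an adjusted p of 0.95 (limma, Benjamini-Hochberg over all genes tested). Lrtm1 gave -0.41 ± 0.56, with an interval of -1.65 to 0.82 and an adjusted p of 0.95 by the same limma fit. The 3 Lrtm1 values of normal liver lay above the 3 of non-tumour liver, which 15.2% of all genes tested did in one direction or the other. Dct gave 0.43 ± 0.98, with an interval of -1.74 to 2.59 and an adjusted p of 0.97 by limma. At adjusted p under 0.05 the fit called 0% of all genes in that comparison, and 6.82% had an unadjusted p under 0.05.

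The comparison of the lines within non-tumour liver was made on a single slide. Control-line arrays lay in its row 1 and arsenite-line arrays in its row 2, so line and row cannot be told apart. Arsenite-line minus control-line non-tumour liver gave 0.18 for Pax2 with an interval of -1.21 to 1.57, -0.02 for Lrtm1 with an interval of -1.25 to 1.22, and 0.58 for Dct with an interval of -1.59 to 2.74. All 3 had a limma adjusted p of 0.9999, and the groups overlapped for each gene. Of all genes tested 0.00552%, which is 1 gene, passed the threshold there, and 5.61% had an unadjusted p under 0.05. Arsenite-line normal minus control-line non-tumour liver, which differ in line, liver state and slide, gave 0.63 for Pax2 (interval -0.76 to 2.01), 0.40 for Lrtm1 (interval -0.84 to 1.63) and 0.15 for Dct (interval -2.02 to 2.32), with limma adjusted p of 0.95, 0.98 and 0.998. There 0% of all genes were called and 6.51% had an unadjusted p under 0.05. These intervals rest on a spread that includes the tumours. A fit of the 9 arrays outside tumours gave smaller standard errors, of 0.26 for Pax2, 0.19 for Lrtm1 and 0.32 for Dct, and the lowest adjusted p of the 3 genes in the 3 comparisons was then 0.63. Each of the 9 intervals from 12 arrays includes a change of 1 on the log2 scale, a doubling, in at least 1 direction.

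**Figure D2:**
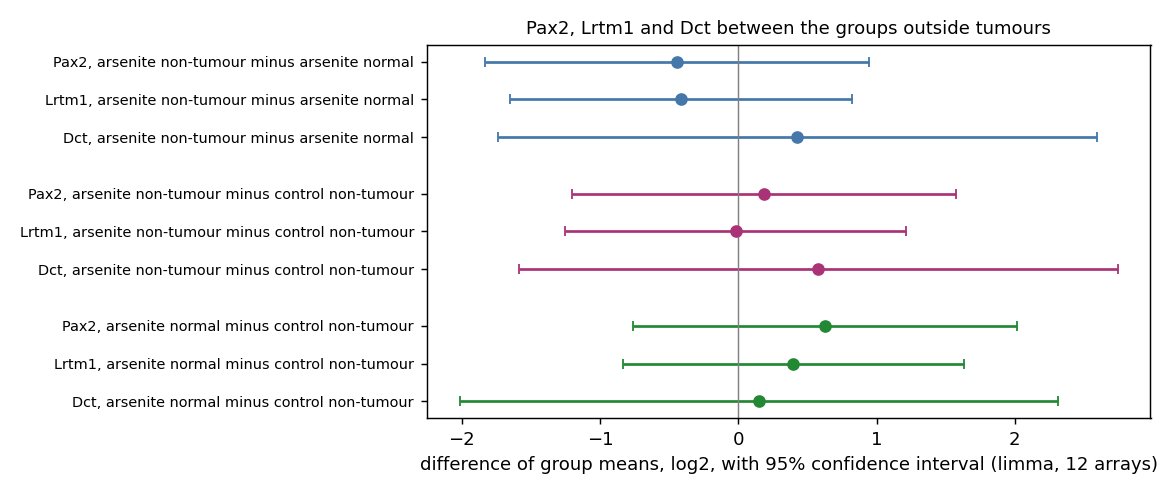
Differences of group means on the log2 scale with 95% confidence intervals from the limma fit of 12 arrays, for Pax2, Lrtm1 and Dct in the 3 comparisons that hold no tumours. All 9 intervals cross 0.

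Over the 9 arrays outside tumours, 1 of the 3 pairs of genes had a correlation past the threshold. Pax2 and Lrtm1 gave Pearson r = 0.82 (exact permutation p = 0.0071, 0.021 after Benjamini-Hochberg over 3 pairs) and Spearman rho = 0.65 (exact permutation p = 0.067, adjusted 0.18). Without the 2 arrays farthest from the median of Pax2, which were control-line non-tumour 1 and arsenite-line non-tumour 3, r was 0.61 (exact permutation p = 0.13, n = 7), so the call of this relation rests on those arrays. Fewer arrays also make a given r harder to call: r was 0.69 (adjusted exact permutation p = 0.17) without control-line non-tumour 1 alone, 0.80 (adjusted exact permutation p = 0.052) without arsenite-line non-tumour 3 alone and 0.76 (adjusted exact permutation p = 0.080) without arsenite-line normal 1 alone. Within the slide that holds both non-tumour groups r was 0.72 (exact permutation p = 0.11, n = 6). Pax2 and Dct gave r = -0.53 (exact permutation p = 0.14, adjusted 0.21) and rho = -0.57 (exact permutation p = 0.12), with r = -0.57 within the slide (exact permutation p = 0.20, n = 6). Without the same 2 arrays r was -0.0026 (exact permutation p = 0.99, n = 7). Lrtm1 and Dct gave r = -0.39 (exact permutation p = 0.31) and rho = -0.47 (exact permutation p = 0.21), with r = -0.58 within the slide (exact permutation p = 0.25, n = 6). Without the 2 arrays farthest from the median of Lrtm1, r for that pair was -0.31 (exact permutation p = 0.48, n = 7). With each value taken relative to the mean of its group, Pax2 and Lrtm1 gave r = 0.71 (adjusted permutation p = 0.052) and Pax2 and Dct gave r = -0.86 (adjusted permutation p = 0.0072). The permutations shuffled these values across groups, though values centred within a group are not free to swap. Those p-values are thus not exact and can be too small. The arrays were left unpooled with the tumours because the tumours form a separate cluster.

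**Figure D3:**
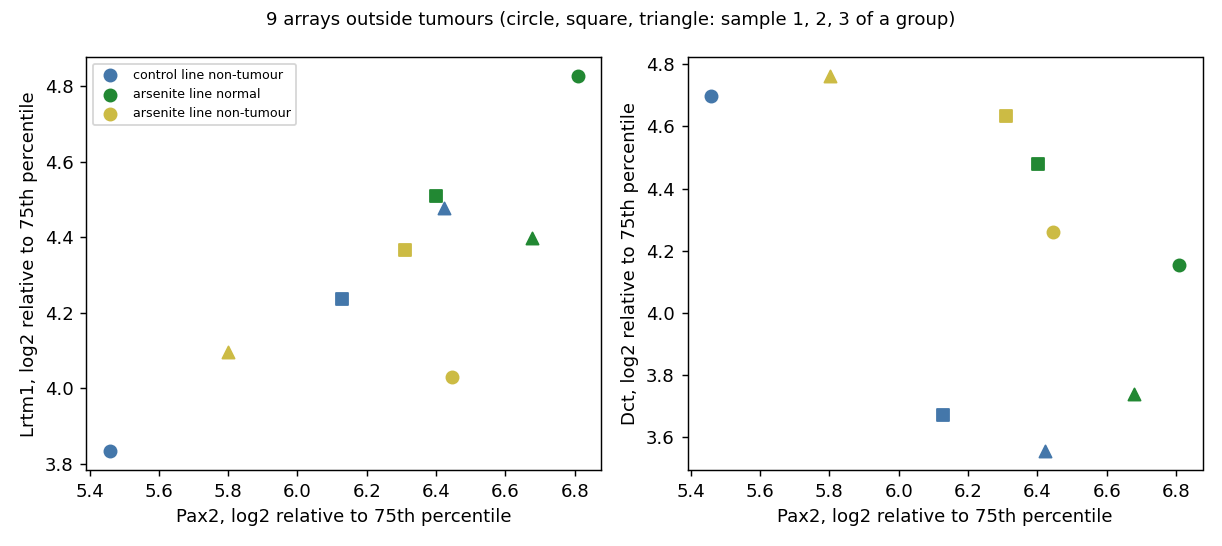
Log2 signals relative to the 75th percentile of Pax2 against Lrtm1 (left) and against Dct (right) on the 9 arrays outside tumours, coloured by group, with circle, square and triangle for samples 1, 2 and 3. Pax2 and Lrtm1 are lowest together on control-line non-tumour 1 (5.46 and 3.83), where Dct is high (4.70).

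Other genes of the embryonic kidney, where Pax2 acts, were mostly dim. Of the 8 other Pax genes, 6 were well above background on no array and none passed the filter for testing. Of 23 genes of kidney development, 11 were above background on no array and 8 were tested in tumours minus arsenite-line non-tumour liver. Of the 8, 3 rose and 2 fell, beside 17.1% and 29.9% of all genes tested, with a median difference of 0.02 beside -0.13 over all genes. Genes were tested if well above background on every array of a group. A gene that passed only through groups where it was bright was thus chosen in part by its difference, as Wnt4 was here. Genes that passed without the tumours were not well above background in at least 1 tumour, so the sizes of their falls are not exact. Bmp7, a secreted growth factor, rose by 4.12 ± 0.24 (SE), from -0.15 to 3.98 (limma adjusted p = 9.1e-07). Sall1, a zinc-finger factor, rose by 1.56. Eya1, a transcriptional coactivator upstream of Gdnf, was bright, at 7.48 in arsenite-line non-tumour liver, and rose by 1.12. Wnt4, a signal for tubule formation, fell by 1.85, and Lhx1 fell by 0.68 (limma adjusted p = 0.042). With the sample number as a block, which pairs these 2 groups, Lhx1 had an adjusted p of 0.17 and 1 gene fell. Gdnf, Ret, Six2 and Pax8 were above background on no array.

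Most genes of pigment synthesis were not tested or did not pass the threshold. Of 20 genes on the list 19 had a probe, 8 were above background on no array, among them Tyrp1, Mlana, Oca2 and Mc1r, and 7 were tested. Of the 7, 1 rose and 1 fell, beside the same 17.1% and 29.9% of all genes, with a median of -0.08. Rab38, a small GTPase that carries enzymes to the melanosome, rose by 2.89 ± 0.36 (SE, limma adjusted p = 9.5e-05). Trpm1, a cation channel, fell by 0.73 ± 0.18 (limma adjusted p = 0.0063, 0.056 with the block). Tyr, the enzyme that starts melanin synthesis, was at -2.52 in arsenite-line non-tumour liver and -2.70 in tumours, and Mitf, the melanocyte transcription factor known to drive Dct, differed by 0.13, and neither passed the threshold. Mif and Ddt, small enzymes that also catalyse dopachrome tautomerisation in the test tube but are not related to Dct in sequence, fell by 0.67 and by 0.69 (limma adjusted p = 0.00065 and 0.00069).

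Other leucine-rich repeat membrane proteins were largely below background. Of 35 such genes, 18 were above background on no array and 9 were tested. None rose and 3 fell, beside 29.9% of all genes that fell, and the median of -0.14 lay next to the -0.13 of all genes. Lrrn3 and Flrt1 had passed the filter without the tumours, where they were low, and the fall of Amigo1 is the one the filter did not favour. Lrrn3 was at least 2.56-fold lower in tumours, where no array read it above background. Flrt1 fell by 1.67 ± 0.30 (SE) and Amigo1 fell by 0.56 ± 0.20 (limma adjusted p = 0.038). Amigo1 passed in 9 and Lrrn3 in 11 of 18 alternatives, and leaving out sample 1 or 3 of arsenite-line non-tumour liver, or tumour 2, left 1 gene that fell. In the 3 comparisons outside tumours, no gene of any list or neighbour passed the threshold.

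The tested genes next to Pax2, Lrtm1 and Dct on their chromosomes moved in both directions or did not pass the threshold. The neighbours were the 3 protein-coding genes on each side in RefSeq's gene order on GRCm38.p6, with Cacna2d3, a calcium channel subunit gene within whose span Lrtm1 lies. Of these 19 genes 14 were tested, 3 rose and 7 fell, beside 17.1% and 29.9% of all genes, with a median of -0.18 beside -0.13. With the block 4 fell, and Tgds, Actr8 and Mrpl43 did not pass (adjusted p = 0.056, 0.057 and 0.094). Around Pax2, Ndufb8, a subunit of respiratory complex I, fell by 0.86, Sema4g fell by 0.74 and Hif1an fell by 0.44, while Slf2 had a difference of 0.10 (limma adjusted p = 0.33). Mrpl43 fell by 0.25, a call kept in 4 of 18 alternatives, and its difference was 0.05 with the percentile taken over detected probes. Around Lrtm1, Cacna2d3 was above background on no array, Erc2 fell by 1.20, Actr8 fell by 0.43, Il17rb rose by 1.43 and Ccdc66 by 0.50, while Wnt5a (-0.10) and Selenok (0.13) did not pass. Around Dct, Gpc6, a cell-surface proteoglycan, was at least 3.104-fold higher in tumours, since no array of arsenite-line non-tumour liver read it above background, and it had passed the filter through the tumours alone. Tgds fell by 0.92 and Sox21 had a difference of -0.03. The most negative difference among the neighbours tested was thus -1.20, beside -9.06 to -7.10 for the 3 genes. Pax2, Lrtm1 and Dct were chosen for their fall and ranked 1, 3 and 4 from the largest fall among 18101 genes. Smaller falls of their neighbours were therefore fixed by that choice.

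**Figure D4:**
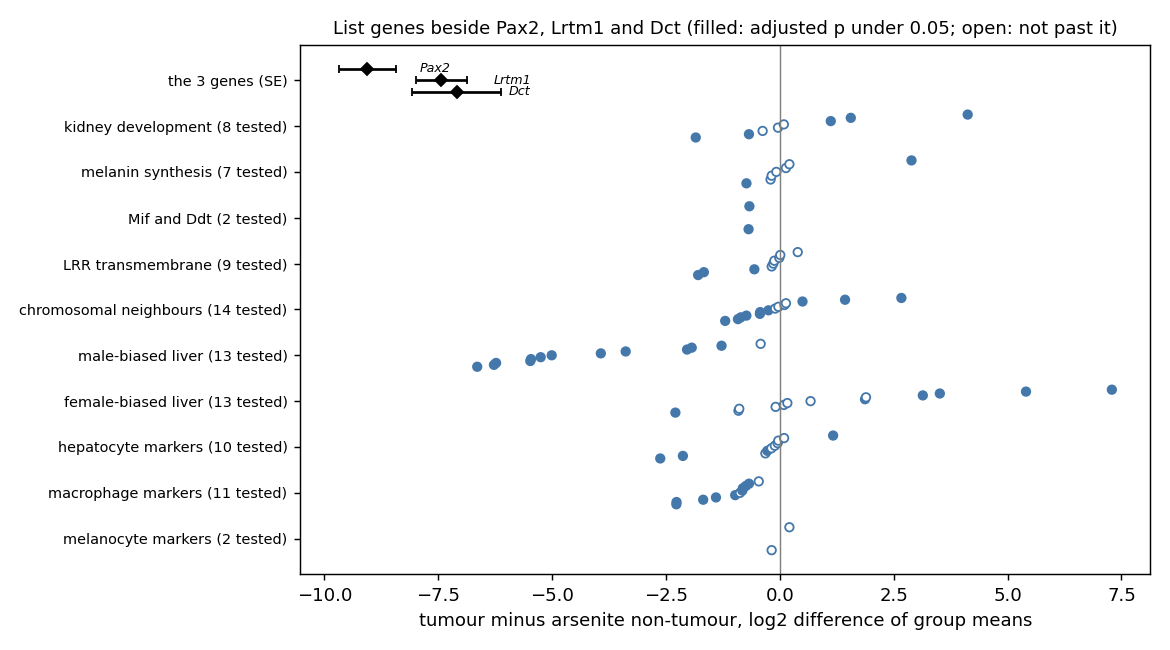
Differences of group means on the log2 scale, tumours minus arsenite-line non-tumour liver, for Pax2, Lrtm1 and Dct (diamonds with SE, no test) and for the tested genes of 10 lists, each point a gene, filled where its adjusted p was under 0.05. Genes of kidney development, pigment synthesis, leucine-rich repeat proteins and neighbours lie between -1.85 and 4.12, and male-biased liver genes reach -6.65.

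The profiles most like those of the 3 genes over the 12 arrays came from named genes and unnamed transcripts. All of them were well above background on the 9 arrays outside tumours. Likeness was the root mean square difference of the profiles, each taken relative to its mean over the 9 arrays outside tumours, so that the tumour fall dominates it. For Pax2 the nearest were an unnamed probe, A_55_P2116674 at chr4:61359906-61359965 (mm9), with 0.58, and the transcript TC1687046 at chr4:61439793-61439852, with 1.09. They lie among the genes of the major urinary proteins, pheromone carriers secreted by the male mouse liver, 28553 bases from the probe of Mup18 and 238 bases from that of Mup19. Cyp2g1, a cytochrome P450, followed with 1.27, then an unnamed transcript at chr19:36699713-36699772 with 1.39 and Slco1a1, an organic anion transporter of the hepatocyte, with 1.40. The same 5 stood nearest to Lrtm1, with differences of 0.35 for TC1687046 to 0.71 for the transcript on chromosome 19. Dct had Etnppl, which breaks down phosphoethanolamine, nearest with 0.87, then the carboxylesterase Ces1e with 0.93, TC1687046 with 0.95, Cyp2g1 with 0.97 and the G protein subunit Gna14 with 0.97.

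A different set of genes was nearest by another measure, Pearson r over the 9 arrays outside tumours. Arrays, measure and pool of genes all differ from those above, and which of them changed the set was not tested. The highest Pearson r with Pax2, among 7608 genes that varied enough, were 0.98 for an unnamed transcript on chromosome 6, 0.98 for another on chromosome 13, 0.98 for Mrgpre, 0.97 for the unnamed probe A_55_P2116794 and 0.97 for the pseudogene Mup-ps21. Of these, Mup-ps21 differed by -5.55 and the transcript on chromosome 13 by -5.01 in tumours minus arsenite-line non-tumour liver, while Mrgpre differed by 0.19. Lrtm1 had Tpst1, which adds sulphate to tyrosines, with r = 0.97 and Arg1, the urea cycle enzyme, with 0.94. The cytochrome P450 Cyp2f2 had 0.93, beside 2 unnamed transcripts with 0.94. Tpst1 was dim, with a mean of -2.64 outside tumours, and was well above background on 8 of the 9 arrays. Dct had H2-Q1, a class I histocompatibility gene, with 0.94, Pitpnm1 with 0.90, Spaca9 with 0.90, Vmn1r65 with 0.89 and an unnamed transcript with 0.88. Of these 9 arrays, Spaca9 was well above background on none and the unnamed transcript on 5. Unlike Dct, H2-Q1 and Pitpnm1 had higher means in tumours than in arsenite-line non-tumour liver, by 1.12 and 1.80. Each is the highest of many values over 9 arrays, with no test.

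Genes known to be expressed more in male than in female mouse liver fell in the tumours together with Pax2, Lrtm1 and Dct. Of 15 male-biased genes 13 were tested and 12 fell, beside 29.9% of all genes tested that fell. Their median difference was -5.01 beside -0.13 over all genes tested. Hsd3b5, a steroid reductase, fell by 6.65, Slco1a1 fell by 6.23, Ugt2b1, a glucuronosyltransferase, fell by 3.93 and Nudt7, a peroxisomal hydrolase, fell by 3.39 (limma adjusted p = 0.00014 for Hsd3b5, 3.7e-06 for Ugt2b1 and 4.6e-06 for Nudt7). Gstp1 had a difference of -0.42 and did not pass. Slco1a1 had passed the filter without the tumours. It was well above background in 2 of the 3 tumours, so the size of its fall is not exact. Of the falls, 11 were of other genes. Among these, Mup20 and C6 did not pass with the block (limma adjusted p = 0.14 and 0.098), and Mup20 passed in 7 of 18 alternatives. The falls of the list numbered 10 to 13 over the alternatives. Of 18 female-biased genes 13 were tested, 5 rose and 1 fell, beside 17.1% and 29.9% of all genes, with a median of 0.67. Of the 5, Sult2a2, Hao2 and Cyp2b13 had passed the filter through the tumours alone, which leaves 2 that rose. Hao2 did not pass with the block (limma adjusted p = 0.081), and Cyp2b13 passed in 12 of 18 alternatives. Sult2a2, a sulfotransferase, was at least 123-fold higher in tumours, Cyp39a1 rose by 3.51 and Cyp2a4 by 1.87, and Prlr, the prolactin receptor, fell by 2.29 (limma adjusted p = 7.9e-05 for Cyp39a1, 0.0013 for Cyp2a4 and 6.6e-05 for Prlr).

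Markers of cell types other than hepatocytes were followed beside the 3 genes. In tumours minus arsenite-line non-tumour liver, 17.1% of all genes tested rose and 29.9% fell. In bulk RNA, fewer cells of a type and less RNA per cell cannot be told apart. Of 8 melanocyte markers, all 8 of which are also on the pigment list, 4 were above background on no array and 2 were tested, none past the threshold. Their summed linear level was 0.52 to 0.77 in arsenite-line non-tumour liver and 0.59 to 0.70 in tumours, so the defining markers of melanocytes were near background in both. Of 10 kidney tubule markers, 6 were above background on no array, and the sum was 0.75 to 1.09 against 0.66 to 0.82. Of 10 skeletal muscle markers, 6 were above background on no array and 1 was tested, Myh2, which was at least 1.37-fold lower in tumours and had passed the filter without them. The sum was 0.34 to 4.34 in arsenite-line non-tumour liver and 0.28 to 0.64 in tumours. Sample 1 of arsenite-line non-tumour liver stood apart at 4.34, of which Acta1, the actin of skeletal muscle, made 3.88, and without Acta1 the sums were 0.29 to 0.46 against 0.22 to 0.52. Of 9 acinar pancreas markers 5 were above background on no array, Cela1 was at least 101-fold higher in tumours and Ctrb1 fell by 0.78, with sums of 1.90 to 2.28 against 11.4 to 17.4 in tumours. Cela1 had passed the filter through the tumours alone and carried the sum, which without it was 1.82 to 2.22 against 1.33 to 1.57.

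Among markers of the resident non-parenchymal cells, those of macrophages were mostly lower in tumours than in arsenite-line non-tumour liver. The other lists moved in both directions, did not pass or, for B and plasma cells, held rises only. Of 11 macrophage markers, all tested, 9 fell against arsenite-line non-tumour liver, 6 against arsenite-line normal liver and 5 against control-line non-tumour liver. Of all genes tested, 29.9%, 30.9% and 32.2% fell in those comparisons, in that order. The count of 9 macrophage markers ranged from 6 to 10 over the alternatives. The counts below are against arsenite-line non-tumour liver, where 17.1% of all genes rose. Clec4f of Kupffer cells fell by 2.27, Timd4, which had passed the filter without the tumours, fell by 2.27, Vsig4 fell by 1.68 and Csf1r fell by 0.98, and the sum was 134 to 180 in arsenite-line non-tumour liver and 47.0 to 85.7 in tumours. Of 9 endothelial markers 1 rose and 3 fell, with sums of 118 to 138 against 70.1 to 97.8, and the rise, of Lyve1, was not past the threshold with the block (adjusted p = 0.063). Of 9 stellate cell and fibroblast markers 8 were tested, 3 rose and 4 fell. Pdgfrb, 1 of those that fell, passed in 6 of 18 alternatives. Dcn fell by 2.05 and Lrat fell by 2.14, while Col1a1 rose by 2.11, with sums of 70.0 to 76.2 against 20.96 to 29.8. The fall of that sum was the fall of Dcn, as without it the sums were 6.98 to 8.15 against 6.61 to 13.1. No bile duct marker of 4 tested passed, with sums of 1.82 to 2.77 against 2.05 to 2.76. Of T and NK cell markers 1 of 5 tested rose, Cd4 by 1.88, and 1 fell, Nkg7, which fell by 0.31 (adjusted p = 0.065 with the block), with sums of 31.4 to 58.6 against 129 to 176. Without Cd4 those sums were 9.35 to 10.4 against 7.99 to 9.03. Of 4 B and plasma cell markers tested 2 rose, Jchain by 1.32 and Mzb1, which had passed through the tumours alone, at least 2.01-fold, with sums of 1.65 to 2.96 against 3.18 to 5.29. Of 10 hepatocyte markers 1 rose, Apoa1 by 1.17, and 3 fell, beside 17.1% and 29.9% of all genes. Tat fell by 2.63, Cps1 fell by 2.13 and Serpina1c fell by 0.28, a call kept in 5 of 18 alternatives, with an adjusted p of 0.14 with the block and a difference of 0.03 when the percentile was taken over detected probes. The part of these cell types in the fall of Pax2, Lrtm1 and Dct was not tested.

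The promoters of Dct and Lrtm1 are shown because the 3 genes were low together in tumours. The RefSeq promoter table on GRCm38.p6 held 1 promoter for Dct, on the minus strand, 1 for Lrtm1, on the plus strand, and 3 for Pax2, on the plus strand. The 250 bases before the annotated start are printed 5′ to 3′ for Dct (chr14:118052247-118052496) and Lrtm1 (chr14:29017958-29018207). Capitals mark CATGTG, the E-box bound by MITF, read on either strand.
Dct: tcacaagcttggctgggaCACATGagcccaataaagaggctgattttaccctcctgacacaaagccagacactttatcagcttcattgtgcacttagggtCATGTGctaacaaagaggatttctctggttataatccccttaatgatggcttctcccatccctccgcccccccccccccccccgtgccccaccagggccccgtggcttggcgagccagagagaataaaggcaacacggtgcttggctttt
Lrtm1: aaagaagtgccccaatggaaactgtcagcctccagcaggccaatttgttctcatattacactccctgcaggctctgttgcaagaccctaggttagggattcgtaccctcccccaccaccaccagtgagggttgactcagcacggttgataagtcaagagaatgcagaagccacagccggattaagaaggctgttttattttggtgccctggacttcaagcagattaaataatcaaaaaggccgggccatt
The Dct promoter held CATGTG on the minus strand at -232 to -227 and on the plus strand at -150 to -145, counted from -1 at the base before the start. That motif occurs in 14.2% of the 32851 promoters of the table in the same window of 300 bases. The first Pax2 promoter, at chr19:44746351-44746650, held TTCNNNGAA, the core bound by STAT5 and BCL6 and the same on both strands, at -236 to -228, which 8.30% of promoters hold. No promoter of the 3 genes held the HNF1 motif searched (0.00913% of promoters), CAAAGTCCA of HNF4 (0.475%), TTGCGCAA of C/EBP (0.183%) or TATAAA (13.6%), so no motif searched was common to the 3 genes. CpG counts in the 300 bases were 5 for Dct, 4 for Lrtm1 and 7, 23 and 30 for the 3 Pax2 promoters. A match is a description of the letters only.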

How the data were processed

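The deposited arrays hold, per the file headers, 1 processed signal per spot: an intensity with background subtracted and spatial trend removed, without scaling across arrays. The headers name Agilent Feature Extraction 10.7.3.1 and the submitters' processing notes 12.0.3.1. A second deposited table, by the authors, was checked against those signals: it is a linear ratio, the processed signal over the 75th percentile of all spots of its array. The authors deposited no log2 values, and log2 values here were computed from the deposited intensities.

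For each array, log2 of the processed signal minus its 75th percentile over the 59305 non-control spots was taken, and spots of a probe were averaged without those marked as outliers. A probe had to be well above background on every array of 1 group or more (24144 of 55681 probes), and the brightest probe stood for its gene (18101 genes tested). Probes were named through RefSeq accessions (27235), symbols (3581) or synonyms (565), and 24300 kept the file's name. limma 3.58.1 (lmFit, eBayes) in R 4.3.3 fitted the 12 arrays together, with Benjamini-Hochberg adjustment and a threshold of 0.05, and was tested on simulated data. Correlations used exact permutation tests (2-sided), which are not exact for values taken relative to group means. Python 3.11.15 served for the rest.

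The 3 genes and the gene lists were chosen with earlier results of these data known. Named genes are the 3 genes, up to 4 tested genes of a list with the smallest p, the neighbours and the 5 most like profiles; Gstp1, Tyr, Mitf, Amigo1, Pax8, Gdnf, Ret, Six2 and other list genes outside that rule were named after their values were seen. Whether a shared sample number marks 1 mouse is not in the labels, and the numbers equal the column of the array on its slide. Residuals of equal numbers in tumour and arsenite-line non-tumour arrays correlated at 0.13, 0.13 and 0.23, and unequal numbers at -0.15 to -0.0030, which met the rule for pairs. No other comparison met it. Alternatives covered scaling, background, filters, arrays fitted, the block, weights and leaving out each array. The number of arrays limits the precision.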

Additional observations from a re-analysis of the deposited data

How the results depend on the processing

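The differences of Pax2, Lrtm1 and Dct in tumours kept their direction in every alternative run, and their size depended on the background correction. With normexp, whose offset of 50 lifts dim signals, tumours minus arsenite-line non-tumour liver gave -7.19, -5.26 and -5.29, tumours minus arsenite-line normal liver -7.60, -5.69 and -4.90, and tumours minus control-line non-tumour liver -6.91, -5.26 and -4.75. Leaving out 1 array gave, in the same order of comparisons, -9.98 to -8.59, -10.43 to -9.04 and -9.80 to -8.41 for Pax2, -8.26 to -6.85, -8.67 to -7.27 and -8.28 to -6.87 for Lrtm1, and -8.08 to -5.63, -7.65 to -5.21 and -7.50 to -5.06 for Dct. The Pax2 probes at background gave -2.03, -0.52 and -0.47 (the first) and -0.31, -0.91 and -0.37 (the middle).

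Outside tumours the 3 genes stayed short of the threshold in all alternatives, with adjusted p of 0.54 or more, and 12 differences changed sign. Arsenite-line non-tumour minus normal liver was 1.51 on the first Pax2 probe, which was well above background on 1 array only, sample 1 of arsenite-line non-tumour liver. Arsenite-line minus control-line non-tumour liver was -0.058 on the middle Pax2 probe, and for Lrtm1 0.0057 with normexp and 0.23 with median scaling, which moved the median of all genes in that comparison by 0.25. Leaving out 1 array gave there -0.090 to 0.39 for Pax2 and -0.19 to 0.13 for Lrtm1, with sign changes at -0.090, 0.0092, 0.13, 0.05 and 0.02. Arsenite-line normal minus control-line non-tumour liver gave -0.060 to 0.51 for Dct, with sign changes at -0.0016, -0.060 and -0.03.

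With the replicate block the differences of the 3 genes were identical, and the standard error of Pax2 in tumours minus arsenite-line non-tumour liver was 0.61 on 12 arrays and 0.80 on 6. In the block of 6 arrays, falls numbered 1 for kidney development, 0 for pigment synthesis, 4 for neighbours and 0 for T and NK markers, rises 0 for endothelium and 1 for bile duct. Kidney development also had 1 fall with the percentile over detected probes, the filter on 1 array, 6 arrays only and the block on 12 arrays. Leucine-rich repeat genes had 1 rise with quantile, normexp and detected-probe scaling, and 1 fall with no filter. Hepatocyte markers had 2 rises with quantile scaling, endothelium 2 rises and neighbours 5 rises with the detected-probe percentile, bile duct 1 rise on 6 arrays, and female-biased genes 2 falls with array weights. T and NK markers had 0 falls with quantile, median and detected-probe scaling and on 6 arrays. Leaving out 1 array gave 1 to 2 falls for kidney development, 1 to 3 for pigment synthesis, 1 to 3 falls and 0 to 1 rises for leucine-rich repeat genes, 1 to 2 falls for female-biased genes, 0 to 1 falls for melanocyte markers and 1 to 2 rises for B and plasma cell markers. The detected-probe percentile moved the median of all genes by 0.16 in that comparison, and no filter by -0.13. The cause of these moves was not tested.

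Of all genes tested, 5587 fell against arsenite-line normal liver, and 2529 with median scaling and 11071 with no filter. Against control-line non-tumour liver 5830 fell, and 2919 and 10034 under those settings. For Pax2 and Lrtm1, r was 0.71 (adjusted permutation p = 0.052) relative to group means and 0.69 to 0.94 without 1 array. For Pax2 and Dct it was -0.86 (adjusted permutation p = 0.0072) relative to group means. The p-values relative to group means are not exact and can be too small. The planned slide block could not be fitted, since slide and group coincide or the slide is shared by both groups. Arrays outside tumours limited the smallest change that could be read, and tumour signals below background have only a bound.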
